A study of Mus musculus with 8 samples.

Results

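The data described here are the transcriptomes of Med23+/+ immature oligodendrocytes (iOLs), taken as a baseline of normal cells at 1 day of triiodothyronine (T3) treatment. They comprise 4 of the 8 RNA-seq libraries of the series, chosen by their wild-type genotype label and not by any measured value. The other libraries are Med23-/- and enter no value below. The cells started as primary oligodendrocyte precursor cells (OPCs) from the brains of mouse pups at postnatal day 7. They were purified by immunopanning, in which plates coated with BSL1 lectin removed unwanted cells and an antibody to CD140a, the product of Pdgfra, captured the OPCs. The OPCs were expanded in Sato medium that contained PDGF-AA (10 ng/ml) and the neurotrophin NT-3 (1 ng/ml). T3 (15 nM) together with ciliary neurotrophic factor (CNTF, 10 ng/ml) was then given for 1 day. In the study, control littermates carried floxed Med23 alleles without the Olig1-Cre transgene, so that Med23+/+ here names cells with an intact gene on this floxed background. Libraries were made from 1 µg of total RNA. Cultures without T3 were not analysed here, so the levels below are those at 1 time point and show no response to the hormone.

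Oligodendrocytes make the myelin sheaths of the central nervous system and arise from OPCs, which divide under platelet-derived growth factor (PDGF). On differentiation they leave the cell cycle, pass through a committed precursor stage and an immature stage, and later switch on the full set of myelin genes and the sterol and galactolipid synthesis that membrane growth requires. T3 acts through nuclear receptors and is the classical trigger of this step in culture, while CNTF acts through gp130 and the JAK-STAT pathway.

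Expression is given as FPKM, the number of fragments assigned to a gene per kilobase of transcript, scaled to the number of mapped fragments, so that levels of different genes can be set side by side per unit of length. The deposited table lists 24346 genes, of which 1303 have no transcript of at least 200 nt and are described separately, since their values scattered widely. Among the other 23043 genes, 12047 averaged 1 FPKM or more across the replicates, 6970 at least 10 FPKM, 657 at least 100 FPKM and 47 at least 1000 FPKM. The median of all 23043 was 1.44 FPKM and that of the 12047 expressed genes was 12.8 FPKM. Of the expressed genes, 11497 were protein-coding (95.4%) and 11548 genes reached 1 FPKM in every library. Positions refer to mm10 and come from the GENCODE vM21 annotation.

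To place the highest genes of the lineage in the genome, the 250 bases before the start site are printed for the highest member of each stage list described below with a window used here, taken from RefSeq (GRCm38.p6, the mm10 assembly), and for Eef1a1, the highest protein-coding gene. No window was used for Olig1, Gpr17 and Bcas1, which stand higher in their lists than Olig2 and Sirt2. Each runs 5′ to 3′ on the strand of its gene, and the capitals mark 4 short motifs searched on both strands: the GC box GGGCGG, the CCAAT box CCAAT, the TATA box TATAAA and the ETS core CCGGAAG. The sequences lie at chr16:91225300-91225549 (plus strand) for Olig2, chr6:22875252-22875501 (plus) for Ptprz1, chr7:28766502-28766751 (plus) for Sirt2, chr11:100574689-100574938 (plus) for Cnp and chr9:78481725-78481974 (minus) for Eef1a1.
Olig2: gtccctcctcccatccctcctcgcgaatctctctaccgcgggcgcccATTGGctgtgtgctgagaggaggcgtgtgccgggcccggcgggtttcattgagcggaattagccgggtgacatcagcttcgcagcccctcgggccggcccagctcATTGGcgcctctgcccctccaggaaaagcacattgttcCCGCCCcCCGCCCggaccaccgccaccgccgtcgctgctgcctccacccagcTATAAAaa
Ptprz1: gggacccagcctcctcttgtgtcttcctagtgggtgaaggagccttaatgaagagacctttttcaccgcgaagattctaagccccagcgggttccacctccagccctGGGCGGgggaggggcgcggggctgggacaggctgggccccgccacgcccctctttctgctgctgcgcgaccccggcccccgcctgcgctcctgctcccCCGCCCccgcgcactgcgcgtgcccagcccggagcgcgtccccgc
Sirt2: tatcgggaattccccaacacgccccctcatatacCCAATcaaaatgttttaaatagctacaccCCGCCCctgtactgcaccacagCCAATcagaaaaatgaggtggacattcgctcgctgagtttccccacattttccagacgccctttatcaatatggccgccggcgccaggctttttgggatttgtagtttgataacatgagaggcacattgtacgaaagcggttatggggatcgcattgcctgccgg
Cnp: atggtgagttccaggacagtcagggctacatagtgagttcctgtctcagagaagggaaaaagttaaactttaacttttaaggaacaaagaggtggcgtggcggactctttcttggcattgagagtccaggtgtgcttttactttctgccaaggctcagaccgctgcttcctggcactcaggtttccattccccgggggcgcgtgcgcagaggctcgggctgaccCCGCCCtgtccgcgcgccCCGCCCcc
Eef1a1: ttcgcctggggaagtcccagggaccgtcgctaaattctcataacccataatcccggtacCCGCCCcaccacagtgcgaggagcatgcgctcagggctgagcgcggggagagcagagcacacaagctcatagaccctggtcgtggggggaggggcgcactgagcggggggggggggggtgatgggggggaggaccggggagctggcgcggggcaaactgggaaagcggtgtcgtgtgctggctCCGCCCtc
All 5 windows held a GC box, with 2 matches in each except Sirt2, which had 1. The GC box occurred in 32.7% of the 32851 windows of this length in the RefSeq table, the CCAAT box in 33.8%, the TATA box in 12.4% and the ETS core in 6.91%. Olig2 and Sirt2 each held 2 CCAAT boxes, and Olig2 alone of the 5 held a TATA box, which ended 2 bases before the RefSeq start site. These matches describe letters only. The start sites are those of RefSeq. GENCODE begins Ptprz1 at the same base, but it begins Olig2 at base 91225457 of chr16, Sirt2 at base 28766735 of chr7 and Cnp at base 100574904 of chr11, each inside the printed window, so that the TATA box of Olig2 lies within the GENCODE gene. Eef1a1, on the minus strand, begins at base 78489151 of chr9 in GENCODE, upstream of its window.

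The 4 libraries resembled each other closely, with 1 difference of sex. Pearson's r between pairs of libraries over log2(FPKM + 1) of the 12047 expressed genes ran from 0.978 for replicates 1 and 3 to 0.990 for replicates 3 and 4. A median gene differed by 0.12 to 0.18 on the log2 scale between any 2 libraries, and between 0.432% and 1.22% of genes differed by more than 1. Xist (chrX:103460366-103483254), the RNA of the inactive X chromosome, was at 182, 0.233, 0.0105 and 0.0154 FPKM in replicates 1 to 4. The Y-linked genes Eif2s3y (chrY:1010543-1028847), Ddx3y, Kdm5d and Uty went the other way, with Eif2s3y at 0.186, 45, 43.6 and 35 FPKM. Replicate 1 therefore carried the transcripts of a female source and replicates 2, 3 and 4 those of a male source, which the labels do not state. Replicate 3 was the highest of the 4 at 35.5% of expressed genes and replicate 2 the lowest at 33.9%. The median GC content of the genes at which each library was highest was 53.2%, 44.3%, 48.2% and 52.4% for replicates 1 to 4, and the part of GC content in the differences between libraries was not tested. Nothing in the labels says whether the replicates were separate cultures, so that the spread between them may be technical in part.

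Med23 itself (chr10:24869986-24913681), which encodes a subunit of the Mediator complex that links transcription factors to RNA polymerase II, was at a modest and steady level. Its 4 values spanned 12.2 to 12.7 FPKM with a coefficient of variation (CV, the SD as a percentage of the mean) of 1.8%, and it ranked 6117 of the 23043 genes. All 33 Mediator subunit genes listed were at 1 FPKM or more, with a list median of 15.9 ± 0.770 FPKM (SD, n = 4). Med10, of the middle module, was the highest at 41.8 ± 2.26 FPKM, followed by Med13 of the kinase module at 38.4 ± 4.31 FPKM, Med21 at 34.2 ± 3.85 FPKM, Med25 at 31 ± 3.63 FPKM and Med1 at 30.3 ± 1.51 FPKM. Med9 was the lowest at 6.85 ± 0.381 FPKM. The subunits thus spanned less than an order of magnitude, with Med23 in the lower part of the list.

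**Figure D1:**
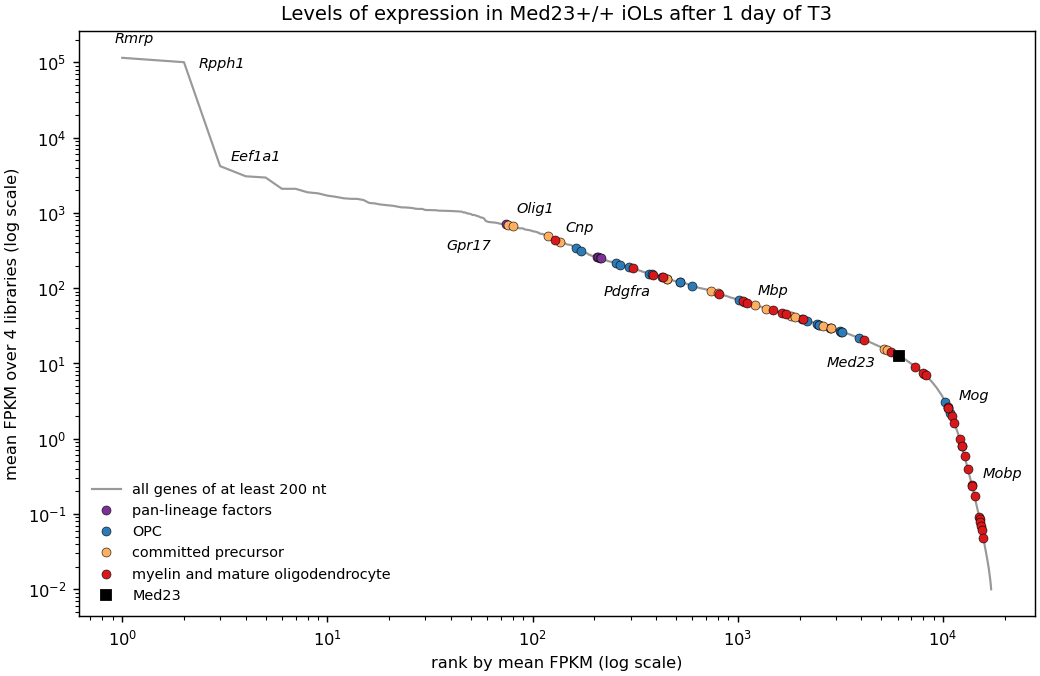
Mean FPKM over the 4 Med23+/+ libraries (y axis, log scale) against the rank of the gene by mean FPKM (x axis, log scale) for genes of at least 200 nt, shown as a grey line, with the members of the 4 stage lists as coloured points and Med23 as a square. Rmrp and Rpph1 stand apart from all other genes at the left, the pan-lineage factors lie at ranks 74 to 451, and the late myelin genes run down to under 0.1 FPKM.

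The ranking was headed by a pair of noncoding RNAs far above all other genes. Rmrp (chr4:43492783-43493063), the RNA of the RNase MRP ribonucleoprotein, was listed at 120755, 107213, 114287 and 116614 FPKM in replicates 1 to 4. Rpph1 (chr14:50807449-50807767), the RNA of RNase P, which processes transfer RNA, was listed at 97256, 90056, 108645 and 105313 FPKM. Together they held 34.0% ± 0.809 of the summed FPKM (SD, n = 4). Their annotated transcripts are only 281 and 319 nt long. Because FPKM divides by length, a given number of fragments yields a higher FPKM in a short transcript. This share of FPKM is therefore not a share of fragments. Both are transcripts of RNA polymerase III that end without a poly(A) tail. How RNA was selected for the libraries is not given in the sources used here. The 100 highest genes of at least 200 nt held 50.1% of the summed FPKM, and the 100 highest protein-coding genes held 24.7% ± 0.144 of the protein-coding sum (SD, n = 4).

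Below these RNAs, genes of protein synthesis and of the cytoskeleton led the transcriptome. Eef1a1 (chr9:78478449-78489151), the elongation factor that brings aminoacyl-tRNA to the ribosome, was the highest protein-coding gene at 3971, 4266, 4384 and 4099 FPKM in replicates 1 to 4. Its lowest library lay above the highest library of every other protein-coding gene. Rpl41, a protein of the large ribosomal subunit, followed at 3064 ± 139 FPKM and Actb, β-actin, at 2947 ± 61.4 FPKM (SD, n = 4). The ranges of Rpl41 and Actb overlapped. Malat1, a nuclear long noncoding RNA, came next at 2089.6 ± 275 FPKM and was the highest noncoding RNA of more than 1000 nt. Tpt1, a translationally controlled protein, was at 1634 ± 303 FPKM, the α-tubulin gene Tuba1a at 1538 ± 147 FPKM and Actg1, γ-actin, at 1534 ± 160.0 FPKM. Most of the others among the 25 highest genes encode ribosomal proteins, namely Rps26, Rps27rt, Rplp1, Rpl38, Rps29, Rps12, Rps2, Rpl28, Rps15, Rplp2, Rpl23a, Rps9, Rpl36, Rps14 and Rpl37a. Gm15772, at 1172 ± 71.4 FPKM, ranked 25 and is annotated as a processed pseudogene. Reads of such copies and of their parent genes cannot be told apart with certainty, so that values of single ribosomal protein genes are uncertain.

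Of 87 ribosomal protein genes in the table, 79 were at 100 FPKM or more and 32 at 1000 FPKM or more, and they made up 38 of the 50 highest protein-coding genes. They held 17.4% ± 0.205 of the protein-coding sum (SD, n = 4). Genes of the respiratory chain and ATP synthase encoded in the nucleus held 3.48% ± 0.101, led by Cox6b1 at 593 ± 31.3 FPKM and Cox8a at 592 ± 66.4 FPKM, both subunits of cytochrome c oxidase. Histone genes of the clusters held 3.52% ± 0.697 over 67 genes, a spread several times that of the ribosomal protein share. Hist1h4d was at 1156, 1134, 840.0 and 1241 FPKM and Hist1h4h at 1437, 572, 904 and 1324 FPKM in replicates 1 to 4. These histone messages also lack a poly(A) tail.

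Ribosomal protein and histone genes were then set aside, a choice made after the values were seen. The protein-coding genes left at the head were Eef1a1, Actb, Tpt1, Tuba1a, Actg1, Ppia, Hspa8, Eef2 and Cfl1, the last at 977 FPKM. Several of the genes that followed were glial ones. Fabp7 (chr10:57784881-57788450), the brain lipid-binding protein of radial glia and young glial cells, had 848, 858, 866 and 881 FPKM with a CV of 1.61%. Scd2, the stearoyl-CoA desaturase of brain, was at 902 ± 78.8 FPKM, the tetraspanin Cd9 at 742 ± 71.9 FPKM and Ckb, brain creatine kinase, at 720.2 ± 73 FPKM (SD, n = 4). Qk, the RNA-binding protein quaking whose loss causes dysmyelination in mice, was at 712 ± 63.5 FPKM. Olig1, Gpr17 and Bcas1, described below, stood among these genes at ranks 74, 76 and 80.

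Genes of the oligodendrocyte lineage were grouped by stage. The median over the list was 253 ± 21.9 FPKM for 6 pan-lineage factors, 55.1 ± 9.93 FPKM for 24 OPC genes, 48.5 ± 4.19 FPKM for 20 committed precursor genes and 2.68 ± 0.640 FPKM for 36 myelin and mature oligodendrocyte genes (SD of the list median over libraries, n = 4). Over all genes of at least 200 nt the median was 1.44 FPKM, 52.3% of genes reached 1 FPKM, 30.2% reached 10 FPKM and 2.85% reached 100 FPKM. In the lists, 6 of 6, 24 of 24, 19 of 20 and 21 of 36 genes reached 1 FPKM, and 6, 11, 5 and 4 genes reached 100 FPKM. In these bulk samples a smaller number of cells of a stage and less RNA per cell cannot be told apart.

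All 6 pan-lineage factors were among the 500 highest genes, with Zeb2 the lowest at rank 451. Olig1 (chr16:91269772-91271933), a basic helix-loop-helix (bHLH) factor of the lineage, was the highest transcription factor listed, at 877, 712, 473 and 761 FPKM in replicates 1 to 4. Its low value in replicate 3 gave it a CV of 24.1%, the highest of the 6. Olig2, the bHLH factor that specifies the lineage, was at 260.5 ± 33.7 FPKM, and the SoxE factors Sox8 and Sox10 were at 258 ± 33 and 255 ± 23.1 FPKM (SD, n = 4). Nkx2-2, a homeodomain factor of differentiation, had 251 ± 21.7 FPKM. The ranges of Olig2, Sox8, Sox10 and Nkx2-2 over the libraries overlapped. Within libraries Sox10 was the higher of Sox10 and Nkx2-2 in all 4, at 267, 220.4, 263 and 269 against 259.8, 219, 259 and 267 FPKM. Zeb2, a repressor of BMP and Wnt signalling, was lower at 134 ± 19.3 FPKM, and its highest library lay under the lowest of each of the other factors.

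**Figure D2:**
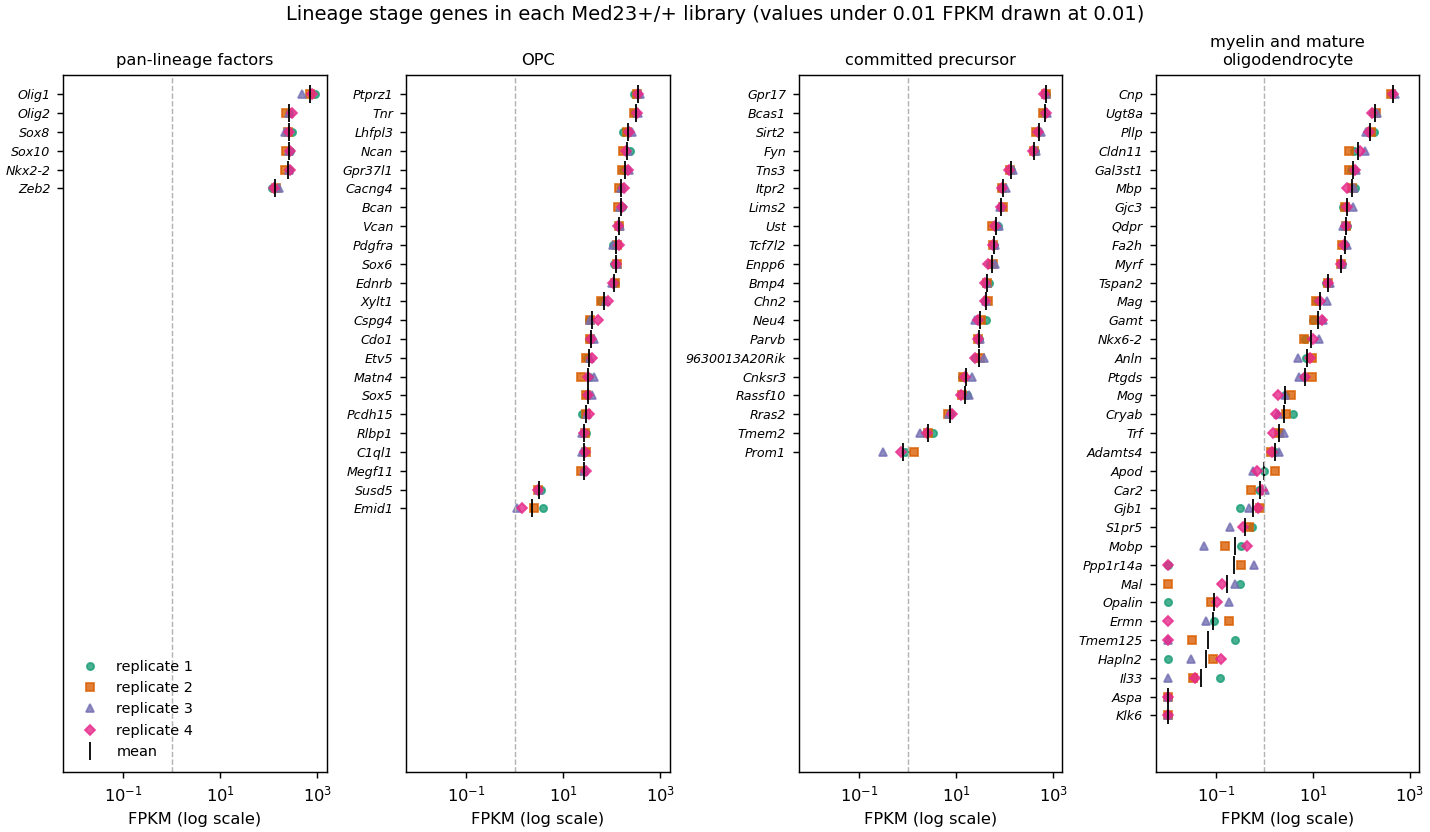
FPKM of members of the 4 stage lists (x axis, log scale) in each Med23+/+ library, with replicates as coloured symbols and the mean as a black bar; the dashed line marks 1 FPKM. The means of all pan-lineage factors and OPC genes shown lie to the right of 1 FPKM, whereas the myelin and mature oligodendrocyte list runs from Cnp at 442 FPKM to Aspa and Klk6 at 0.

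OPC genes were abundant, with 22 of 24 at 10 FPKM or more. Ptprz1, a receptor tyrosine phosphatase with chondroitin sulfate chains, was the highest at 281, 336, 382 and 350.3 FPKM, and Tnr, the matrix glycoprotein tenascin-R, followed at 284, 282, 351 and 332 FPKM in replicates 1 to 4. The ranges of these genes overlapped. Lhfpl3, a tetraspan protein marking OPCs, was at 214 ± 37.9 FPKM, the proteoglycan gene Ncan at 204 ± 26 FPKM and Gpr37l1, a G protein-coupled receptor, at 190.3 ± 29.8 FPKM (SD, n = 4). The related proteoglycans Bcan and Vcan were at 153 ± 13.3 and 142 ± 6.59 FPKM. Pdgfra (chr5:75152292-75198215), the PDGF receptor whose protein was used to capture the cells, was at 108, 129, 105 and 141 FPKM and ranked 521. Cspg4, the NG2 proteoglycan, stood at 34.3, 34.7, 35.2 and 51.5 FPKM, with replicate 4 above the others. Susd5 and Emid1 were the lowest members at 3.11 ± 0.226 and 2.2 ± 1.26 FPKM.

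Genes of committed precursors reached the highest levels of any stage marker after Olig1. Gpr17 (chr18:31942997-31949636), a G protein-coupled receptor that marks cells between OPC and oligodendrocyte, was at 721, 707, 708 and 657 FPKM with a CV of 4.08%. Bcas1 (chr2:170346991-170427845), a marker of newly forming oligodendrocytes, was at 643, 620.0, 743 and 699.6 FPKM, so that the ranges of the pair overlapped. Sirt2, an NAD-dependent deacetylase of oligodendrocytes, had 500.1 ± 54.1 FPKM and Fyn, the Src family kinase of myelin initiation, 408 ± 28.4 FPKM (SD, n = 4). The next member, Tns3, a tensin of focal adhesions, was at 134 ± 11.5 FPKM, and its highest library lay well under the lowest of Fyn. Enpp6, a choline phosphodiesterase of newly formed oligodendrocytes, was at 49, 56.9, 62.6 and 46.2 FPKM, Tcf7l2, an effector of Wnt signalling, at 59.8 ± 2.16 FPKM and Bmp4 at 43 ± 3.3 FPKM. Prom1 was the only member under 1 FPKM, at 0.883, 1.32, 0.303 and 0.71 FPKM.

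Myelin genes spanned the widest range of the 4 stage lists, from 442 FPKM to 0. Cnp (chr11:100574904-100591729), the phosphodiesterase of non-compact myelin, was the highest at 430.1, 404, 488 and 445 FPKM in replicates 1 to 4. Ugt8a, which makes galactosylceramide, followed at 186 ± 21 FPKM, then Pllp, plasmolipin, at 184, 156, 124 and 143 FPKM in the same order. Cldn11, the claudin of myelin tight junctions, was at 84.6 ± 27.2 FPKM and Mbp, myelin basic protein, at 73.8, 62.3, 70.6 and 51 FPKM. Myrf, the factor that drives myelin genes, was at 38.4 ± 1.44 FPKM with a CV of 3.75%.

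Most markers of later myelin were at the bottom of the list. Mag, the adhesion protein of the inner myelin layer, had 11.9, 11.6, 19.6 and 13.8 FPKM, but Mog, of the outermost myelin surface, only 2.61, 3.44, 2.63 and 1.93 FPKM. Mobp was at 0.324, 0.152, 0.0568 and 0.436 FPKM, Opalin at 0, 0.0773, 0.186 and 0.104 FPKM and Mal at 0.312, 0, 0.242 and 0.134 FPKM. These values overlapped among themselves, and each mean was more than 100 times lower than that of Mbp. Apod, Car2, Gjb1, S1pr5, Ppp1r14a, Ermn, Tmem125, Hapln2 and Il33 were also under 1 FPKM, and Aspa and Klk6 were listed at 0 in all 4 libraries.

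A wider list of lineage transcription factors held 85 genes in the table, of which 77 reached 1 FPKM, 54 reached 10 FPKM and 16 reached 100 FPKM. After Olig1, Olig2, Sox8, Sox10 and Nkx2-2, the next were Sox2, a progenitor factor, at 217 ± 17.2 FPKM, Ctnnb1, β-catenin, at 191 ± 12.5 FPKM, the E protein Tcf4 at 160.4 ± 19.2 FPKM, Sox4 at 158 ± 22.6 FPKM and Id3 at 148 ± 15.5 FPKM (SD, n = 4). Id2 and Id1 were at 102 ± 10.2 and 73.3 ± 13.9 FPKM. Id proteins are inhibitors that bind E proteins, and both groups were thus abundant in the same libraries. Srebf2, the activator of sterol synthesis genes, was at 114 ± 7.81 FPKM and Srebf1, its fatty acid counterpart, at 20.2 ± 2.33 FPKM. Zfp488, a zinc finger factor of oligodendrocytes, was the steadiest of the 20 highest at 92, 90.2, 89.8 and 92.1 FPKM. Hes1, Rxrg, Gli3, Gli2, Nkx6-1 and Lef1 were under 1 FPKM, and Sox17 and Nkx2-9 were listed at 0.

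Transcripts of receptors for the factors in the medium were present. For T3, Thra (chr11:98740638-98769006), the α receptor, was at 103, 87.2, 118 and 104 FPKM and Thrb at 1.38, 1.47, 1.52 and 1.31 FPKM in replicates 1 to 4, a ratio of 72.8 on average and at least 59.4 in every library. The corepressor Ncor1 was at 56.2 ± 3.57 FPKM, and Slc16a10, a transporter of the hormone, was at 0.401 ± 0.137 FPKM. The activating deiodinase Dio2 was at 0.796 ± 0.168 FPKM and the inactivating Dio3 at 0.115 ± 0.103 FPKM, Slco1c1 was at 0.199 ± 0.0971 FPKM, and Dio1 was listed at 0. Of 6 known target genes of T3, Hr was at 43.1, 35.4, 46.6 and 42.1 FPKM, Klf9 at 20.4, 18.1, 20.7 and 20.3 FPKM and Dbp at 4.8 ± 1.31 FPKM, whereas Nrgn, Thrsp and Cyp26b1 were under 1 FPKM, at 0.802, 0.65 and 0.472 FPKM.

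For CNTF, the ligand-binding Cntfr was at 4.34, 2.29, 5.47 and 6.26 FPKM, the shared chain Il6st (gp130) at 22.4 ± 1.26 FPKM and Lifr at 8.12 ± 0.974 FPKM. Stat3 led the STAT genes at 32.5 ± 2.52 FPKM, Jak2 and Jak1 were at 20.9 ± 1.4 and 17.3 ± 0.988 FPKM, and the feedback inhibitor Socs3 was at 2.81 ± 0.36 FPKM. In this list of 18 genes, 13 reached 1 FPKM, Stat5a, Jak3, Stat6 and Osmr were under 1 FPKM and Stat4 was listed at 0. Among 26 receptor tyrosine kinases, 17 reached 1 FPKM. Pdgfra was the highest, and its lowest library lay above the highest of Ntrk2 (TrkB), at 57.5 ± 5.54 FPKM. Erbb4, a neuregulin receptor, was at 36.7 ± 1.14 FPKM, Ddr1, a collagen receptor, at 35.6 ± 3.15 FPKM and Ntrk3 (TrkC), the receptor of NT-3, at 25.7 ± 2.01 FPKM. Among those under 1 FPKM were Axl, Mertk, Erbb2, Ngfr, Pdgfrb, Fgfr4, Ret and Met, with Erbb2, the partner of other ErbB receptors, at 0.421, 0.343, 0.286 and 0.353 FPKM.

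Genes of lipid synthesis were well expressed. All 20 genes of cholesterol synthesis reached 10 FPKM and 8 of them reached 100 FPKM, with a list median of 85.9 ± 3.43 FPKM (SD, n = 4). Hmgcs1, of an early step, was the highest at 631, 686, 687 and 577 FPKM in replicates 1 to 4, followed by Fdps at 378 ± 28.7 FPKM, Msmo1 at 184 ± 36.8 FPKM and Idi1 at 182 ± 31.7 FPKM. Ebp was the lowest at 13.2 ± 2.21 FPKM. In galactolipid and sulfatide synthesis, 9 of 10 genes reached 10 FPKM. Ugt8a was above Gal3st1, which adds the sulfate, at 66.7 ± 9.18 FPKM, the ceramide synthase Cers2 at 53.4 ± 7.9 FPKM, Fa2h, the fatty acid 2-hydroxylase, at 45 ± 4.01 FPKM and Degs1 at 41.9 ± 1.15 FPKM. For comparison, 14 of 16 glycolytic genes reached 10 FPKM and 7 reached 100 FPKM, with a list median of 78.1 ± 9.02 FPKM. They were led by Gapdh at 533 ± 21.4 FPKM, Eno1 at 382 ± 44.3 FPKM, Pkm at 361 ± 14.8 FPKM, Pgk1 at 218 ± 25.2 FPKM and Aldoa at 213 ± 13.4 FPKM.

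Markers of other cell types were checked to see what the purified cultures held. None of 14 microglia genes and none of 11 endothelial genes reached 1 FPKM, the highest being P2ry12 at 0.829, 0.983, 0.964 and 0.628 FPKM and Kdr at 0.963, 0.332, 0.378 and 0.347 FPKM in replicates 1 to 4. The defining microglia genes Cx3cr1 and C1qa were at 0.040 and 0.0953 FPKM and Trem2 was listed at 0, while of endothelial genes Cldn5 was at 0.0124 FPKM and Tie1, Slco1a4, Ly6c1 and Emcn were listed at 0. No red cell gene reached 1 FPKM, Alas2 being the highest at 0.541 FPKM. Of 12 mural and fibroblast genes, Col1a1, Tagln and Col1a2 reached 1 FPKM, at 2.54 ± 3.0, 2.36 ± 0.509 and 1.32 ± 1.38 FPKM. Foxj1 alone of 6 ependymal genes reached 1 FPKM, at 1.63 ± 0.616 FPKM, and Pmp22 alone of 5 Schwann cell genes, at 24.5 ± 8.1 FPKM.

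Astrocyte and neuron genes were present at higher levels. Of 13 astrocyte genes, 10 reached 1 FPKM, led by S100b at 125 ± 25.6 FPKM, Aldoc at 50.7 ± 8.8 FPKM and Slc1a3 at 29.2 ± 5.41 FPKM (SD, n = 4), and S100b and Aldoc are also expressed in oligodendrocyte lineage cells. The more defining Gfap was at 30.03, 10.8, 6.56 and 6.91 FPKM, Aldh1l1 at 16.1, 9.68, 7.71 and 6.6 FPKM and Aqp4 at 10.1, 6.75, 6.03 and 4.32 FPKM in replicates 1 to 4, with replicate 1 the highest for each, Gja1 was at 1.66, 0.787, 0.909 and 0.48 FPKM and Gjb6 was listed at 0. The sum of the 13 genes ran from 259 FPKM in replicate 2 to 312 FPKM in replicate 3, with replicate 1 at 311 FPKM. Replicate 1 was the highest library at 8 of the 10 expressed genes (80%), against 25.9% of all expressed genes. Replicate 3 was the highest at the other 2, S100b and Aldoc. Replicate 1 was also the highest at 8 of 13 expressed neuron genes and at 3 of 3 expressed mural and fibroblast genes. No test was made of these counts. Of 17 neuron genes, 13 reached 1 FPKM and 4 reached 10 FPKM, with a list median of 5.22 ± 0.939 FPKM. Map2, which oligodendrocytes also express, was at 161 ± 12.7 FPKM, Dcx at 44.1 ± 5.36 FPKM and Tubb3 at 19.4, 10.8, 11.5 and 12 FPKM. Snap25 was at 12.8 ± 2.47 FPKM, Stmn2 at 9.26 ± 3.07 FPKM and Gad1 at 8.55 ± 2.85 FPKM. Lower were Rbfox3 (NeuN) at 2.45 ± 0.785 FPKM and the vesicular glutamate transporter Slc17a7 at 0.706 FPKM. The part of other cells in these levels was not tested.

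Factors that mark a region of the brain were low. Among forebrain factors, 6 of 12 genes reached 1 FPKM, with Lhx2 at 7.89, 6.75, 3.81 and 6.91 FPKM in replicates 1 to 4. Of midbrain and hindbrain factors 4 of 10 did, namely Irx3 at 3.72 ± 0.893 FPKM, En2 at 2.39 ± 0.681 FPKM, Irx5 at 2.3 ± 0.373 FPKM and Pax2 at 1.16 ± 0.529 FPKM.

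Proliferation genes were present in every library. All 21 genes of S phase and mitosis were at 1 FPKM or more. Pcna, the sliding clamp of DNA replication, was at 121, 132, 85.4 and 100.2 FPKM, Top2a at 48.6, 66.5, 29.8 and 52.6 FPKM and Mki67, the marker of dividing cells, at 30.2, 44.2, 21.1 and 38.3 FPKM in replicates 1 to 4. Replicate 3 was the lowest library at 20 of the 21 genes (95.2%), against 21.1% of all expressed genes, and replicate 2 the highest at 14 (66.7%, against 19.0%). The exception was Tyms, at 13, 16.1, 13.2 and 12.6 FPKM. The summed level of the list was 560.3, 671, 369 and 573 FPKM. Without replicate 3 the CV of this sum fell from 23.2% to 10.1%. The library left out was the one with the extreme sum, so this fall was fixed in advance and adds no support.

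Replicate 3 was also set apart in other groups. Of 57 expressed histone cluster genes, replicate 4 was the highest library at 39 (68.4%), against 19.6% of all expressed genes. Replicate 3 was the lowest at 37 of the 57 (64.9%), against 21.1% of all expressed genes. It was the highest library at 14 of 21 expressed myelin and mature oligodendrocyte genes (66.7%) and at 12 of 19 committed precursor genes (63.2%), against 35.5% of all expressed genes. The summed myelin list was 1362, 1329, 1556 and 1358 FPKM in replicates 1 to 4, with replicate 3 above the other libraries. Its mean without replicate 3 was 1350 ± 18.3 FPKM (SD, n = 3), where the smaller spread follows from leaving out the extreme library. Cldn11, Mag and Nkx6-2 were each highest in replicate 3, Nkx6-2 at 6.81, 6.39, 13 and 10.1 FPKM. Genes of 1 list share their libraries and are not independent, and no test was made of these counts.

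**Figure D3:**
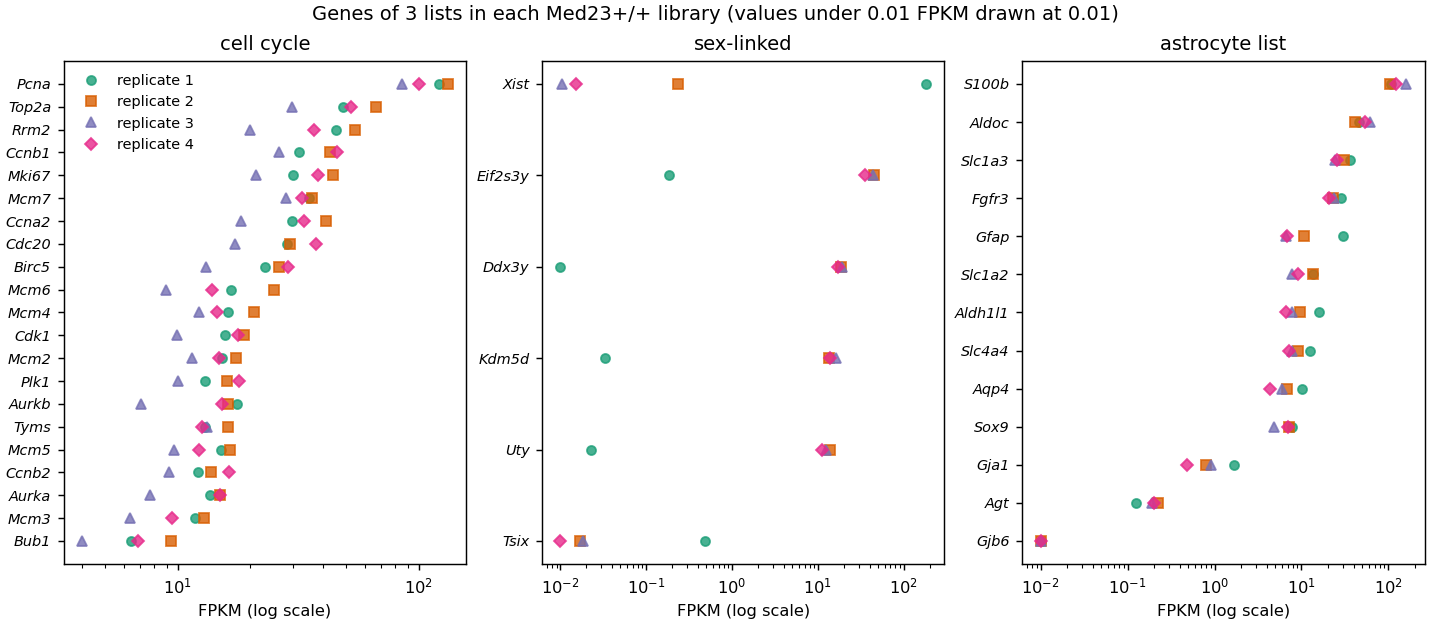
FPKM (x axis, log scale) of the genes of the cell cycle, sex-linked and astrocyte lists in each Med23+/+ library, with replicates as coloured symbols. Replicate 3 (triangles) is the lowest at 20 of 21 cell cycle genes, and replicate 1 (circles) has Xist without the Y-linked genes and the highest Gfap and Aldh1l1.

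In most of the gene families listed, 1 member held over 50% of the summed FPKM. For 59 families the share of the summed FPKM held by each member was computed in every library. The leading member held over 50% in 40 families and over 90% in 8, and the median share of the leader was 62.3%. In a family of 2 members, such as the ferritins or Crebbp and Ep300, the leader holds about 50% or more whatever the values. The leader was the same in all 4 libraries in 54 families, and in 50 its lowest library lay above the highest library of the next member. The SD of the leading share over libraries had a median of 2.47 percentage points and was at most 7.74. A two-sided exact sign-flip test over 4 paired libraries cannot give a p below 0.125, so no test was made. For near-identical copies, such as actins and tubulins, how shared reads were divided bears on the shares.

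The cytoskeleton and core metabolism had clear leaders. Actb held 65.8% ± 2.67 of the actin sum over Actg1 (SD, n = 4), and Tuba1a 89.5% ± 1.08 of the α-tubulin sum. The β-tubulins were shared out more evenly, with Tubb2b at 37.5% ± 2.21 and Tubb5 next at 23%. Cfl1 held 81.9% ± 1.83 of the cofilin group, Ckb 99.3% ± 0.133 of creatine kinases, Eno1 98.6% ± 0.368 of enolases, Aldoa 80.7% ± 3.39 of aldolases and Ldha 77.6% ± 2.47 of lactate dehydrogenases. Among chaperones, Hspa8 held 69.2% ± 1.2 of the HSP70 group and Hsp90ab1 57.5% ± 2.36 of the HSP90 group. The light chain Ftl1 exceeded the heavy chain Fth1 of ferritin by 2.78 times on average. Slc16a1 led the monocarboxylate transporters at 55% ± 3.51.

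Membrane and signalling families of the lineage also had leading members. Gjc3, an oligodendrocyte connexin, held 91% ± 4.43 of the connexin sum. Cd9 led 22 tetraspanins at 42.4% ± 1.76, 3.64 times the next, Tspan7. In the proteolipid family the leader was Gpm6a, at 45.4% ± 3.69, with Gpm6b next at 35.4%. Fyn held 91.2% ± 0.815 of the Src kinase sum, and Src itself 4.21%. Notch1 held 94.7% ± 1.66 of 4 Notch genes, Erbb4 81.4% ± 0.781 of the ErbB receptors, Ntrk2 68.8% ± 1.36 of the neurotrophin receptors and Gria2, the AMPA receptor subunit that blocks calcium entry, 54.2% ± 1.07 of its family. Kcnj10, the Kir4.1 channel of glia, led 9 potassium channel genes at 52% ± 4.13.

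Among regulators, Thra held 98.6% ± 0.19 of its pair, Rxrb 73.5% ± 3.65 of the retinoid X receptors, Sox6 77.4% ± 1.76 of SoxD, Sox2 89.8% ± 1.69 of SoxB1, Sox4 74.7% ± 2.7 of SoxC, Olig1 72.4% ± 6.0 of the Olig genes and Tcf7l2 80.6% ± 2.71 of the TCF and LEF genes. Cdkn1b (p27), the cell cycle inhibitor of OPC exit, held 62.5% ± 4.01 of its family.

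In 9 families the ranges of the leading pair overlapped. Sox8 and Sox10 held 49.6% ± 3.34 and 49.1% of the SoxE sum, and each was the higher in 2 of 4 libraries. The D cyclins Ccnd3 and Ccnd1 were at 50.3, 39.2, 56.8 and 50.1 and at 44.9, 51.7, 40.2 and 58.2 FPKM in replicates 1 to 4, again with each ahead in 2. The other overlapping pairs were the calmodulins Calm3 and Calm2, the stathmins Stmn3 and Stmn1, the glucose transporters Slc2a1 and Slc2a6, the Na,K-ATPase β subunits Atp1b2 and Atp1b3, the septins Sept7 and Sept5, Sp3 and Sp1, and Crebbp and Ep300. Sp3 and Sp1 were at 24 ± 2.97 and 21.2 ± 1.23 FPKM, and Crebbp and Ep300 at 32.4 ± 4.6 and 26.8 ± 3.02 FPKM. The first gene was the higher in all 4 libraries for Calm3 and Calm2, Sept7 and Sept5, Sp3 and Sp1, and Crebbp and Ep300, and in 3 of 4 for the stathmins, glucose transporters and Na,K-ATPase β subunits.

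**Figure D4:**
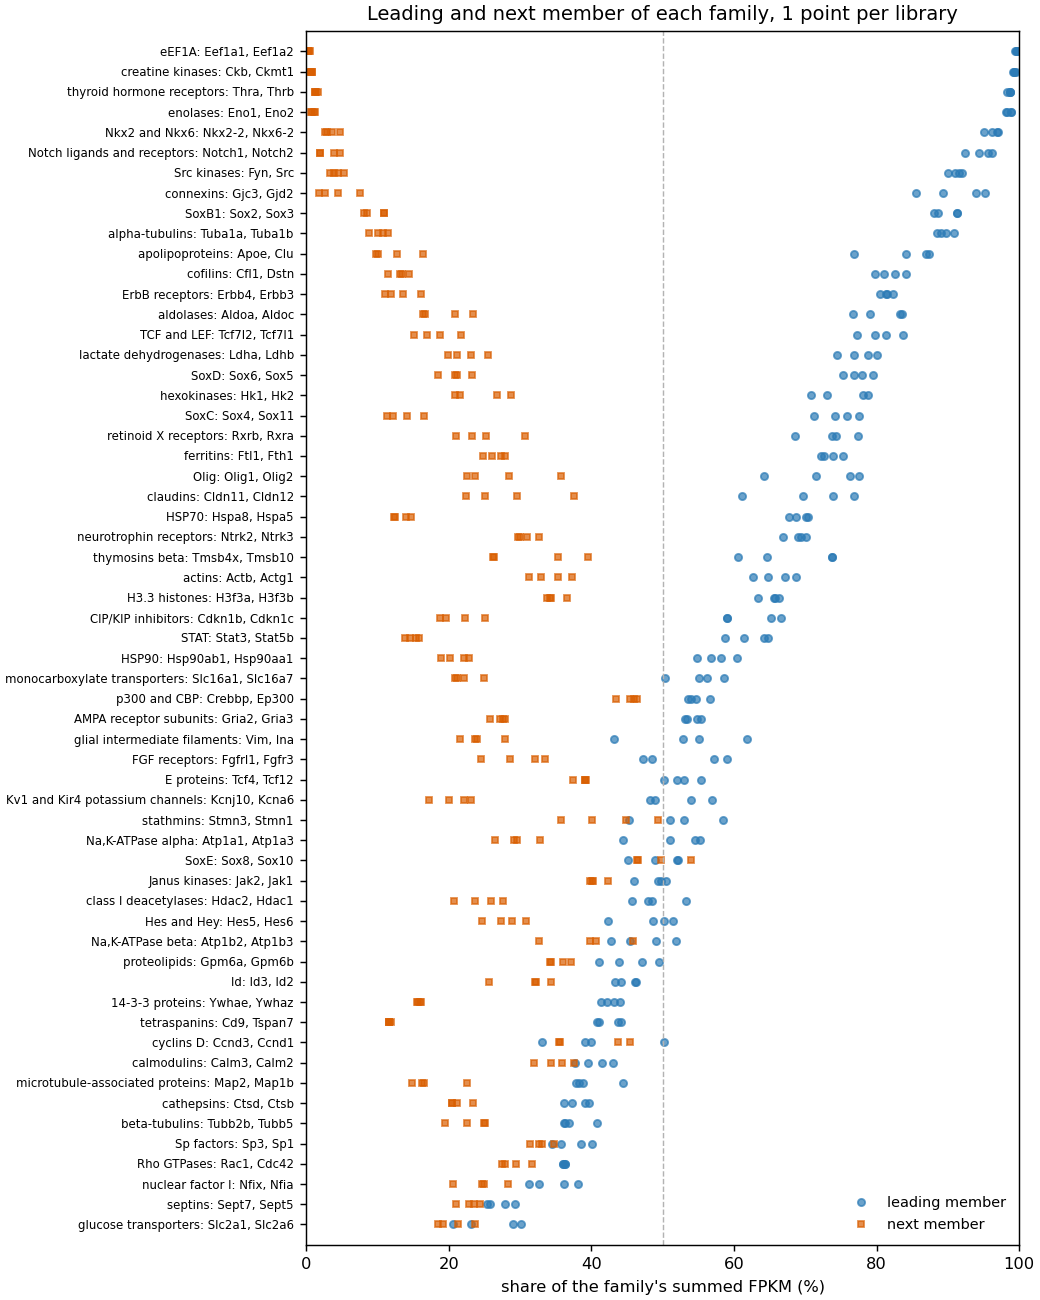
Share of the family's summed FPKM (x axis, in percent) held by the leading member (circles) and the next member (squares) of 59 gene families, with 1 point per Med23+/+ library; the dashed line marks 50%. Eef1a1, Ckb, Thra and Eno1 hold over 98% on average, while the leading pairs of SoxE genes and D cyclins intermingle.

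Spread between libraries depended on the level. The median CV was 14.5% for the 5077 genes from 1 to 10 FPKM, 9.03% for 6313 genes from 10 to 100 FPKM, 9.06% for 610 genes from 100 to 1000 FPKM and 6.97% for the 47 genes above. Over all 12047 expressed genes it was 10.7%, and 151 genes (1.25%) had a CV over 50%.

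Among the 6970 genes at 10 FPKM or more, the highest CV belonged to the small Cajal body RNA Scarna10, at 2491 FPKM in replicate 1 and listed at 0 in the others, and to Xist. Amd2 (chr10:35708675-35711892), next in line, was at 0.012, 0.155, 68.6 and 6.9 FPKM in replicates 1 to 4. Its near-identical relative Amd1 (chr10:40287458-40302186), the S-adenosylmethionine decarboxylase of polyamine synthesis, was at 79.2, 93.9, 15.3 and 64 FPKM, low where Amd2 was high. Their sum was 79.2, 94.1, 83.9 and 70.9 FPKM, with a CV of 11.8% against 176% for Amd2. BC002163 was at 24, 31.4, 2.2 and 2.27 FPKM, Lars2, mitochondrial leucyl-tRNA synthetase, at 411, 761, 89.5 and 187 FPKM, Atp6v0c-ps2 at 24.8, 4.8, 6.43 and 14.3 FPKM and Gm20594 at 61.1, 26.2, 26.5 and 11.4 FPKM. Gfap, Eif2s3y and Kdm5d were the others of the 10 highest.

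The 10 lowest CVs at 10 FPKM or more ran from 0.0319% to 0.781%. They belonged to Alkbh6, of the AlkB family, at 16.9, 16.9, 16.9 and 16.9 FPKM, Cldnd1, Cars, Coa5, the microtubule protein Map4, the outer mitochondrial channel Vdac1 at 142, 144, 144 and 144 FPKM, Chtf8, Dhx33, Luc7l and Smad4. With 4 values per gene and 6970 genes ranked, such extremes are the ends of a wide distribution and do not name genes held constant by the cells.

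**Figure D5:**
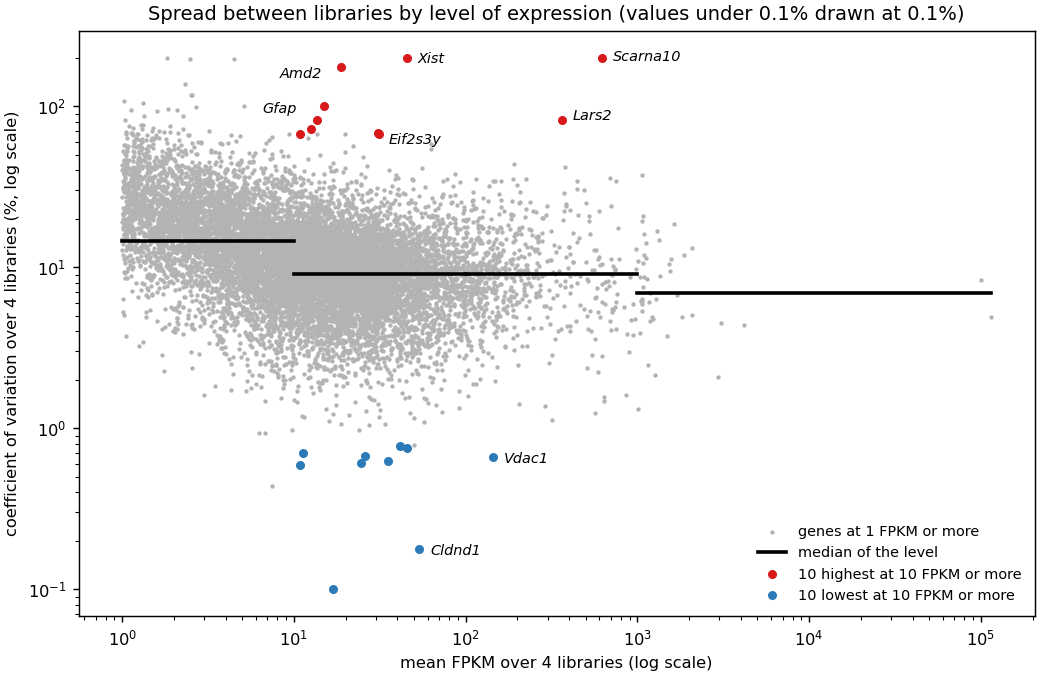
Coefficient of variation over the 4 Med23+/+ libraries (y axis, percent, log scale) against mean FPKM (x axis, log scale) for the 12047 expressed genes of at least 200 nt, with black lines for the median of each level and coloured points for the 10 highest and 10 lowest at 10 FPKM or more. The median falls from 14.5% at 1 to 10 FPKM to 6.97% above 1000 FPKM.

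Genes without a transcript of 200 nt were kept out of the ranking. Of these 1303, mostly microRNAs, 73 had a mean of at least 1 FPKM, and 46 of the 73 (63.0%) were listed at 0 in at least 1 library, against 0.0913% of the longer expressed genes. Their median CV was 116%. Snord104 was at 22165, 24339.6, 48415 and 0 FPKM in replicates 1 to 4, Snord22 at 11909.8, 11027, 10053 and 6796 FPKM, and Snord49a, Snord49b and Rnu73b reached 33289, 28529.9 and 23848 FPKM in replicate 3, with Snord49a and Snord49b listed at 0 elsewhere. No level of a short RNA is therefore given as a result.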

How the data were processed

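RNA-seq was run on 8 libraries of iOLs, of which the 4 labelled as wild type were used. Per the labels and the study's methods, RNA was extracted with Trizol, libraries were made with a commercial NEB kit, and the authors trimmed reads with cutadapt, aligned them with TopHat2 to mm10 and ran Cuffdiff with fragment bias correction and weighting of multiply mapped reads. Versions, the annotation, the strand setting, the library normalization and any selection of poly(A) RNA are not given in the sources used here. The deposited values are FPKM per gene and library, computed by the authors. The table also holds the authors' own comparison (fold change, p and q values), which was not used. Reads of near-identical, overlapping and antisense genes cannot be told apart with certainty. Rn45s was listed at 0 with a status marking a failed estimate. No counts of reads entered the work, which leaves the depth unknown and allows no counting interval. The spacing of low FPKM values gave only a rough guide to relative depth, since 11.2% to 18.7% of genes lay near the most frequent ratio to replicate 1, which was 0.75, 0.901 and 0.936 for replicates 2, 3 and 4.

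Values were used as deposited with Python 3.11.15, numpy 2.4.6 and pandas 2.3.3, and plotted with matplotlib 3.10.9. Of the 24346 genes, 23318 matched a GENCODE vM21 symbol, 661 an older symbol and 275 RefSeq only, and 92 had no match. Ranks and sums used genes of at least 200 nt, and genes averaging 1 FPKM or more were called expressed. Errors are SDs over 4 libraries, and the CV is SD over mean. Correlations used log2(FPKM + 1). There was 1 group, so no test between groups was made, and the code was checked on simulated data. Gene lists, families and members were chosen with earlier results of these data known. Genes named were the 25 highest, the 5 highest short genes, the 5 highest and those under 1 FPKM of each stage and pathway list, the 3 highest of other cell type lists, the leading pair of each family, the 20 highest transcription factors, the 10 highest and 10 lowest CVs at 10 FPKM or more, Med23, and members of the cell type and sex-linked lists where they bear on a result. Other genes named, among them the glial genes outside the ribosomal and histone groups, OPC and myelin genes below the 5 highest, and the pair Amd1 and Amd2, were chosen after their values were seen. Some members of the lists are counted in them but not reported here by name. Alternatives were other scalings between libraries, short genes kept, the median over libraries, limits of 0.1 and 5 FPKM, a pseudocount of 0.1 and each replicate left out. Shares over protein-coding genes only, and without Rmrp and Rpph1, were added after seeing the data.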

Additional observations from a re-analysis of the deposited data

Results flagged for a closer look

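Of 370 values examined for a single library far from the other 3, 34 had such a library. Chance gives about 1 in 20 groups of 4 for independent values not chosen by their spread. The 370 include genes picked here for a high or low CV, and list summaries beside their own members. The count can therefore not be set against that rate. Values are FPKM, with the range of the other libraries after each. Replicate 1 stood above the others for Dlx5 (1.88 against 0.457 to 0.518), Fcer1g (0.873 against 0 to 0.126), Kdr (0.963 against 0.332 to 0.378), Scarna10 (2491 against 0 to 0), Slc16a1 (12.8 against 11.2 to 11.3), Tmem125 (0.242 against 0 to 0.0317), Tsix (0.486 against 0 to 0.0183), Tubb3 (19.4 against 10.8 to 12) and Xist (182 against 0.0105 to 0.233), and below them for Ddx3y (0 against 17.1 to 18.9) and Ncmap (0.151 against 0.462 to 0.514). Xist, Tsix and Ddx3y are sex-linked genes.

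Replicate 2 stood below the others for Emx2 (1.63 against 2.79 to 2.92), Klf9 (18.1 against 20.3 to 20.7), Nkx2-2 (219 against 259 to 267) and Sox10 (220.4 against 263 to 269), and above them for Cldnd1 (54 against 53.8 to 53.8), Fosl1 (0.0578 against 0 to 0) and Pax5 (0.0476 against 0 to 0). The median of the pan-lineage list was 220.7 FPKM in replicate 2 against 261 to 268 FPKM in the others, and the share of Rmrp and Rpph1 in the summed FPKM was 32.7% against 34.3% to 34.5%.

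Replicate 3 stood above the others for Amd2 (68.6 against 0.012 to 6.9), Dynlrb2 (0.418 against 0 to 0), H3f3b (373 against 325 to 330.1), Itpr2 (105 against 84.3 to 87.5), Map1b (97.3 against 59.4 to 65.3), Rnu73b (23848 against 0 to 2558), Smad4 (41.7 against 41 to 41.1), Snord49a (33289 against 0 to 0) and Snord49b (28529.9 against 0 to 0), and below them for Otx2 (0.181 against 0.584 to 0.659) and Stmn1 (70.5 against 121 to 128). The share of the myelin and mature oligodendrocyte list in the summed FPKM of protein-coding genes was 0.375% in replicate 3 against 0.331% to 0.338% in the others. Snord49a, Snord49b and Rnu73b are short RNAs. Replicate 4 stood above the others for Cspg4 (51.5 against 34.3 to 35.2) and Vim (84.7 against 56.7 to 60.3).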

How the results depend on the processing

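Of the recomputed summary values, 81 stayed close to the value reported (counts and measures of spread within 1.5 times of it, other values within the SD between libraries) and 10 did not. Of the recomputed values of single genes and families, 2619 stayed within that SD, 302 did not and 5 changed the leader of a family. For these and for the list medians, a mean without 1 replicate or a median over libraries always lies within the SD, unless the leader changes. Staying close was therefore fixed in advance in those settings and shows no robustness. The number of genes counted as expressed, 12047, became 14894 with a limit of 0.1 FPKM, 9179 with a limit of 5 FPKM and 12643 with libraries scaled to a common sum. The share of the 100 highest genes was 50.1% but 53.8% with short genes kept and 24.7% over protein-coding genes only or without Rmrp and Rpph1, and the share of ribosomal protein genes was 11.1% but 9.61%, 17.4% and 16.9% in that order, since the sum they are divided by changes. Scaling all libraries to the common sum that TPM uses raised every level alike, so that the list medians became 399.7 (pan-lineage), 86.9 (OPC), 76.7 (committed precursor) and 4.26 (myelin and mature), and it accounts for nearly all of the 302 other values that moved. The leader of the SoxE family turned from Sox8 to Sox10, which held 48.2% where the leader was chosen by median FPKM, 50.002% without replicate 1 and 50.1% without replicate 2, while Sox8 led with 51.1% without replicate 3 and 49.8% without replicate 4. The leader of the D cyclins turned from Ccnd3 to Ccnd1, which held 41.5% without replicate 1 and 41.6% without replicate 3, while Ccnd3 led with 43.1% without replicate 2 and 41.1% without replicate 4. With 1 replicate left out, 11986 to 12068 genes reached 1 FPKM, 39 to 42 families had a leader over 50%, and the median CV ran from 9.76% to 11.1%. No paired analysis was possible because only 1 group was used, and members of a family were set against each other within libraries by ratios and shares with no test. The 4 libraries, an unknown depth and values without counts limit precision, most of all under 10 FPKM.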

Other observations

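Of 16 immediate early genes, which respond rapidly to stimuli, 11 reached 1 FPKM and 3 reached 10 FPKM, with a median of 2.97 FPKM beside 1.44 FPKM over all genes. They were led by Jund at 18.6 ± 3.68 FPKM and the nuclear receptor Nr4a1 at 17.7 ± 3.45 FPKM (SD, n = 4), followed by Jun at 12.3 ± 1.7 FPKM, Egr1 at 8.3 ± 1.55 FPKM and Ier2 at 7.2 ± 2.11 FPKM. Atf3, Fosb, Egr3, Egr2 and Fosl1 were under 1 FPKM, at 0.121, 0.11, 0.12, 0.351 and 0.0145 FPKM.

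Some abundant entries of the table are of uncertain origin and were picked after their values were seen. Mrgpra6 (chr7:47185707-47204920), annotated as a sensory neuron receptor gene, was listed at 597, 721, 585 and 589 FPKM in replicates 1 to 4, and Olfr856-ps1 (chr9:19657057-19658647), an olfactory receptor pseudogene, at 229, 257, 212 and 221 FPKM. The processed pseudogenes Rpl34-ps1 and Gm12191 were at 736 ± 70.7 and 568 ± 7.03 FPKM. Among long noncoding RNAs after Malat1, 4930470H14Rik (chr17:4044658-4082995) was at 198, 186, 171 and 177 FPKM and the small nucleolar RNA host gene Snhg6 at 135 ± 13.4 FPKM. Whether reads of other genes were assigned to these entries was not tested.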
